A study of Rattus norvegicus with 15 samples.

Results

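The genes described here are 8 components of the circadian clock, chosen by name among the 32883 genes of the count tables: the activators Arntl (also called Bmal1) and Clock, the repressors Per1, Per2, Per3 and Cry1, the nuclear receptor gene Nr1d1 (REV-ERBα) and the output factor gene Dbp. Each gene was taken by its Ensembl ID (ENSRNOG00000014448 for Arntl, ENSRNOG00000002175 for Clock, ENSRNOG00000007387 for Per1, ENSRNOG00000020254 for Per2, ENSRNOG00000018413 for Per3, ENSRNOG00000006622 for Cry1, ENSRNOG00000009329 for Nr1d1 and ENSRNOG00000021027 for Dbp) and kept if its chromosome in the tables was the one given with its name, and all 8 were kept. The list has no threshold on values, but it was drawn up with results of these libraries known, so the tests below describe these libraries and are not independent support for a pattern.

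RNA was measured in the MS layer of rat colon, which the study's text defines as mucosa and submucosa. A layer so defined is a mixture of epithelial, immune, vascular and connective tissue cells. Legends of the study also call the RNA samples colon epithelial, and which holds for these libraries was not tested. There were 5 groups with 3 libraries each. At 3 M of age these were wild type rats without treatment (WT-C), wild type rats given antibiotics (WT-Ab), transgenic rats without treatment (TG-C) and transgenic rats given antibiotics (TG-Ab), and the last group was untreated wild type rats at > 12 M, whose sample names give 14 months. The transgenic genotype at > 12 M was not analysed here. TG rats are BAC-hSNCA rats, homozygous for a bacterial artificial chromosome with the human α-synuclein gene under its own human promoter, on the outbred Sprague Dawley background, and WT rats are their littermates. Antibiotics were a broad-spectrum cocktail in sucrose drinking water, given for 2 weeks from 2.5 M, and whether the untreated rats drank sucrose is not stated in the sources used here. The labels call the cell type colon epithelial. Its markers were not checked, since only the 8 clock genes could be paired with a symbol.

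In the molecular clock, the proteins of Clock and Arntl bind E-boxes and switch on the Per and Cry genes, whose proteins return to the nucleus and block that activation, and the loop takes about a day. In a linked loop the same pair drives Nr1d1, whose protein represses Arntl, and Dbp, whose protein activates genes with D-boxes. In colon and other peripheral tissues the loop is set by feeding time and by signals from the brain, and transcripts of Nr1d1 and Dbp swing widely between phases of the day, in opposite phase to Arntl. No source used here gives the hour at which tissue was taken. Differences between groups in the hour of collection therefore cannot be told apart from differences in treatment, genotype or age in any comparison below.

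The elements of this loop could be looked for in RefSeq promoters of the rat build GRCr8, which were matched for 7 of the 8 genes (9 windows, each of the 250 bases before a transcript start; Cry1 was not matched). The letters searched on both strands were CACGTG (an E-box), TTATGNAA (a D-box) and AGGTCA (the core bound by REV-ERB and ROR receptors). Of the 9 windows 3 held a match, and no matches overlapped. The windows of Clock, Per1, Per3 and Dbp and the first window of Nr1d1 held none. No window of a Per gene or of Dbp thus held the E-box letters. The 3 windows with a match are shown with the match in capitals, and each carries the element of a different arm of the loop. The share of all windows with any of the 3 strings was not computed. A match is a string of letters and not a bound site. Among all 33469 windows of this length, 5.59% held the E-box, 3.28% the D-box and 14.1% the receptor core. The Nr1d1 window lies at chr10:84229455-84229704 on the minus strand, upstream of the second of its listed starts, with the E-box at 191 bases before the start. The Per2 window lies at chr9:99496994-99497243 on the minus strand, with the D-box at 192 bases before the start. The Arntl window lies at chr1:176766078-176766327 on the plus strand, with the receptor core at 15 bases before the start.
Nr1d1: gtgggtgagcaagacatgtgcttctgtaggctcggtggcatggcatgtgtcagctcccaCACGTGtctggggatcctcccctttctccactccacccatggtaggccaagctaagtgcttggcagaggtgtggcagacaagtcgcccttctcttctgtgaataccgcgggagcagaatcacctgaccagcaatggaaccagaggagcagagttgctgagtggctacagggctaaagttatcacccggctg
Per2: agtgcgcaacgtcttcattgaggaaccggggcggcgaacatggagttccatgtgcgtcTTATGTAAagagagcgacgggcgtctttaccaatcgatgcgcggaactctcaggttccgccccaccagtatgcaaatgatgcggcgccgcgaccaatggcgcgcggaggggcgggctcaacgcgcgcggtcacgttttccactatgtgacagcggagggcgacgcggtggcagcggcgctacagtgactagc
Arntl: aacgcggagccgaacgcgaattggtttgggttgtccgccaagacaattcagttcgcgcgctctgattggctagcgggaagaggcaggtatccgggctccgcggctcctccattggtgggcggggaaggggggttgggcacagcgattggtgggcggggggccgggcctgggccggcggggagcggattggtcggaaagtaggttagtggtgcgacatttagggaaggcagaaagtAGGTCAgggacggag

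The counts came from 15 libraries of 15606835 to 28685094 counts each. All 8 genes were detected in every library, from 65 counts of Nr1d1 in a WT-C library to 5701 counts of Dbp in a library at > 12 M, and passed the filter on low counts in every comparison. Levels are given as CPM, which scales each gene's counts by the library's total over all genes, and are compared between libraries and not between genes, since the genes differ in length. In bulk tissue, fewer cells of a type and less RNA per cell cannot be told apart. Nothing states that the libraries of a group come from separate rats, so p-values measure the spread between these libraries, which may be technical. At 3 M, library 1 of WT-Ab, of TG-C and of TG-Ab stood apart on the first principal component of all genes (66.8 to 98.3 against -58.3 to 0.0202 in the other 9 libraries), and results are also given without these 3 libraries where that changed a call.

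**Figure D1:**
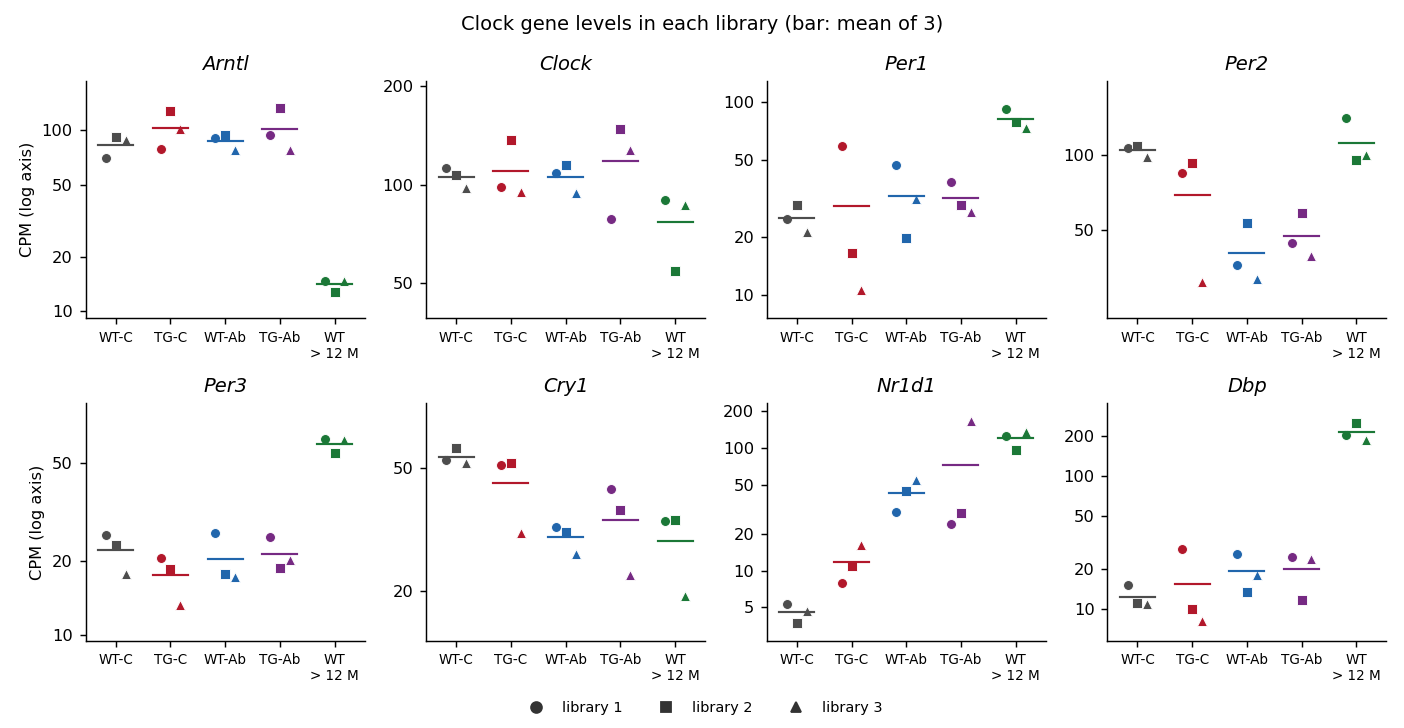
Level of each of the 8 clock genes (CPM, log axis) in each of the 15 libraries, by group, with symbols for the library number and a bar at the group mean. Nr1d1 lies between 3.75 and 16.2 CPM in the 6 untreated libraries at 3 M and between 23.9 and 167.0 CPM in the 6 antibiotic libraries, and Arntl and Dbp separate the libraries at > 12 M from the 12 others.

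The first question was whether the clock genes differed between rats with and without antibiotics. Across both genotypes, Nr1d1 rose 7.10-fold and Cry1 fell 1.69-fold in the antibiotic groups, and without TG-Ab 3 the fold of Nr1d1 was 4.66. The 2.10-fold lower level of Per2 did not pass the threshold, and neither did any change of the other 5 genes. Nr1d1 encodes a haem-binding nuclear receptor that represses transcription, and its gene on the minus strand of chr10 (86683875 to 86690815 in Rnor6) overlaps the end of Thra on the other strand. Reads were counted by strand, but the strand of these counts was not checked against the library kit, so reads of Thra among them were not tested. In WT-C its level was 5.30, 3.75 and 4.64 CPM in libraries 1, 2 and 3, and in WT-Ab it was 30.3, 44.9 and 54.7 CPM. In TG-C it was 7.92, 10.9 and 16.2 CPM, and in TG-Ab 23.9, 29.5 and 167.0 CPM. Every antibiotic library was above every untreated library, and library 3 of TG-Ab was far above the other antibiotic libraries.

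Per2 and Cry1, which encode the repressor proteins that pair with each other in the negative limb, had lower means with antibiotics. Per2 was at 106.2, 108.6 and 97.9 CPM in WT-C and at 36.4, 53.1 and 32.0 CPM in WT-Ab. In TG-C it was at 84.5, 92.2 and 31.1 CPM and in TG-Ab at 44.3, 58.4 and 39.3 CPM. Library 3 of TG-C was thus as low as the antibiotic libraries, and the 6 untreated libraries overlapped the 6 treated ones. Cry1 was at 53.0, 57.8 and 51.7 CPM in WT-C and at 32.2, 30.9 and 26.2 CPM in WT-Ab. In TG-C it was at 51.0, 51.7 and 30.8 CPM and in TG-Ab at 42.7, 36.4 and 22.5 CPM. The same TG-C library that was low in Per2 was low in Cry1, and for Cry1 too the treated and untreated libraries overlapped in TG and not in WT.

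In the fit over both genotypes (edgeR's quasi-likelihood test, Benjamini-Hochberg adjustment over 12457 genes), 2 of the 8 clock genes passed an adjusted p under 0.05, the threshold for a call, where 2.79% of all genes did. By direction this was 1 clock gene higher (1.06% of all genes) and 1 lower (1.73%). The log2 fold change was 2.83 ± 0.50 (SE) for Nr1d1 with an adjusted p of 0.0189, -0.76 ± 0.16 for Cry1 with 0.0376 and -1.07 ± 0.26 for Per2 with 0.0544. At an unadjusted p under 0.05 these 3 passed, with 20.5% of all genes. Nr1d1 was the only clock gene whose 6 treated libraries did not overlap the 6 untreated ones, which held for 3.88% of all genes. The median absolute log2 fold change was 0.27 over the 8 clock genes and 0.21 over all genes tested. The adjusted p lay near the threshold and crossed it when single libraries were left out, while the fold changes moved little except for Nr1d1 without TG-Ab 3. Nr1d1 was not called without WT-C 1, WT-C 2 or TG-C 2 (adjusted p of 0.0527, 0.0568 and 0.0512, in a range of 1.35e-07 to 0.0568 over all alternatives), at log2 fold changes of 2.84, 2.74 and 2.83. Cry1 was still called without TG-C 1, TG-C 3 or TG-Ab 1 (0.0229, 0.0264 and 0.0331). Without any of the other 9 libraries it was not (0.0556 to 0.0945, in a range of 0.000538 to 0.0945 over all alternatives), at log2 fold changes of -0.81 to -0.69. Per2 was called under 5 alternatives, namely without TG-C 1 (0.0344) or TG-C 3 (0.0108), by DESeq2 (0.00170), with the replicate number as a block (0.0295) and with at least 4 CPM required in every library (0.0498), in a range of 0.00170 to 0.121. Without the 3 libraries that stood apart, the adjusted p was 0.00844 for Nr1d1, 0.0201 for Cry1 and 0.0868 for Per2.

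**Figure D2:**
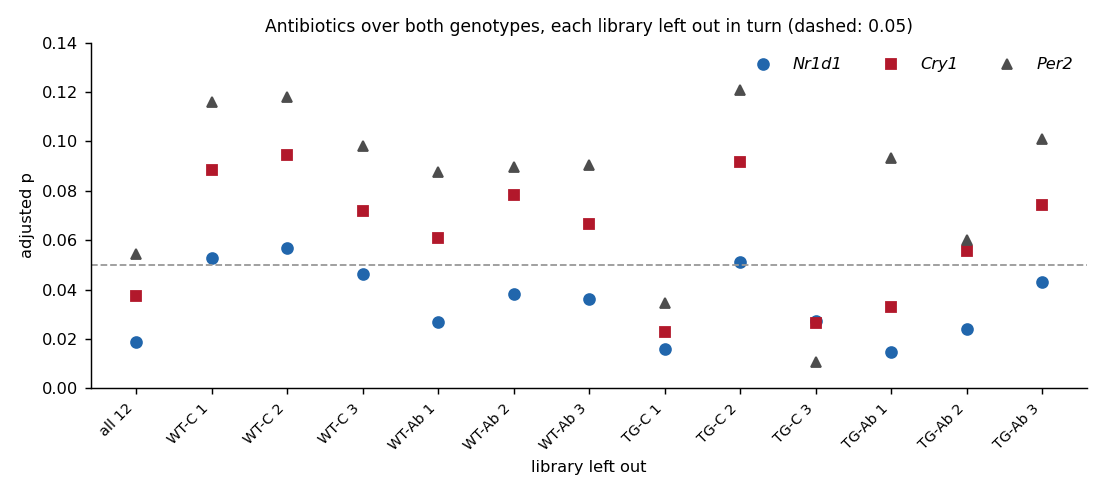
Adjusted p (edgeR's quasi-likelihood test) of Nr1d1, Cry1 and Per2 for antibiotics over both genotypes, for all 12 libraries at 3 M and after leaving out the library named on the x axis, with a dashed line at 0.05. Nr1d1 crosses the line without WT-C 1, WT-C 2 or TG-C 2, Cry1 stays under it in 3 of the 12 cases, and Per2 lies under it without TG-C 1 or TG-C 3.

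None of the other 5 genes passed the threshold with antibiotics. Arntl, which encodes the DNA-binding partner of Clock, ranged from 70.1 to 128.3 CPM with a median of 90.0 in the 6 untreated libraries and from 77.5 to 133.6 CPM with a median of 92.0 in the 6 treated ones. For Clock the ranges were 94.9 to 137.5 CPM and 78.7 to 148.4 CPM. In both activators the treated and untreated libraries thus overlapped across most of the range, with log2 fold changes of -0.11 ± 0.16 and -0.08 ± 0.16 (adjusted p of 0.711 and 0.803). Dbp, a PAR-bZIP factor under direct control of Clock and Arntl, ranged from 8.13 to 28.4 CPM without antibiotics and from 11.6 to 26.1 CPM with them. Per1, a repressor that also responds acutely to glucocorticoids, ranged from 10.6 to 59.1 CPM and from 19.6 to 47.0 CPM. Per3, the remaining period gene, ranged from 13.3 to 25.5 CPM and from 17.2 to 26.1 CPM. Their log2 fold changes were 0.39 ± 0.29, 0.15 ± 0.34 and -0.05 ± 0.15, with adjusted p of 0.494, 0.813 and 0.860.

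Within WT rats the separation was complete for 3 clock genes. Nr1d1 was higher in all WT-Ab libraries than in any WT-C library, and Per2 and Cry1 were lower, so 3 of 8 clock genes did not overlap. That is near the share of all genes without overlap, 31.2%. By direction, non-overlap upwards was found for 1 clock gene and 23.1% of all genes, and downwards for 2 clock genes and 8.11% of all genes. Nr1d1 was 8.67-fold higher (log2 fold change of 3.12 ± 0.30), Per2 2.85-fold lower (-1.51 ± 0.21) and Cry1 2.02-fold lower (-1.01 ± 0.12). No gene, and so 0% of 12193, passed the adjusted threshold in this comparison, and the adjusted p was 0.182 for Nr1d1, 0.183 for Per2 and 0.183 for Cry1 by edgeR. At an unadjusted p under 0.05 these 3 clock genes passed, with 16.3% of all genes, and DESeq2 called the same 3, with 5.04% of all genes. Without WT-Ab 1, one of the libraries that stood apart, edgeR called all 3, with 1.61% of all genes (adjusted p of 0.00196 for Nr1d1, 0.0312 for Per2 and 0.0247 for Cry1, against highest values over the alternatives of 0.643 for each). The mitochondrial share of counts was 7.62% in that library, 11.5% and 11.7% in the other WT-Ab libraries and 11.6% to 13.7% in WT-C, and its part in these values was not tested.

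Within TG rats the directions of Nr1d1, Per2 and Cry1 means were the same and the spread was wider. Nr1d1 was 5.74-fold higher in TG-Ab than in TG-C (log2 fold change of 2.52 ± 0.89, adjusted p of 0.650) and was the only clock gene whose groups did not overlap, where 14.6% of all genes did not. Without TG-Ab 3, its log2 fold change was 1.01. None of the 8 clock genes was called by edgeR, where 0.00814% of all genes were. At an unadjusted p under 0.05 only Nr1d1 passed, with 7.13% of all genes, and DESeq2 called Nr1d1 (adjusted p of 0.0466, the lowest over the alternatives, of which no other was past the threshold), with 1.64% of all genes. In pairs of libraries with the same number, Nr1d1 differed by 1.59, 1.43 and 3.37 on the log2 scale (higher in 3 of 3 pairs). Cry1 differed by -0.26, -0.51 and -0.45 (lower in 3 of 3 pairs), with a fitted log2 fold change of -0.52 ± 0.28 and an adjusted p of 0.794. Per2 differed by -0.93, -0.66 and 0.34, so that 1 pair went the other way, and its fitted value was -0.65 ± 0.38 with an adjusted p of 0.814. Per3 was also higher in 3 of 3 pairs (0.27, 0.0046 and 0.60), and Arntl, Clock, Per1 and Dbp were higher in 2 of 3. The share of all genes with every pair in the same direction was not computed. Pairing by number is not established.

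The difference between the genotypes in the response to antibiotics was itself tested as an interaction, and none of the 8 clock genes was called, nor was any gene (0% of 12457). At an unadjusted p under 0.05 no clock gene passed, where 1.47% of all genes did, and DESeq2 called no clock gene. The interaction on the log2 scale was 0.89 ± 0.46 for Per2, 0.53 ± 0.30 for Cry1 and -0.55 ± 0.97 for Nr1d1, with adjusted p of 0.998 for each by edgeR. Without TG-Ab 3 it was -2.08 ± 0.54 for Nr1d1 (unadjusted p of 0.00350, edgeR) and 0.73 ± 0.25 for Cry1 (unadjusted p of 0.0155), and with the replicate number as a block 0.99 ± 0.34 for Per2 (0.0165) and 0.53 ± 0.22 for Cry1 (0.0420). The share of all genes at an unadjusted p under 0.05 was not computed for these alternatives, and 1.47% is from the fit of all libraries at 3 M. By edgeR no gene was called without TG-Ab 3 (0% of 12442) or with the block (0% of 12457). The lowest adjusted p of Per2, Cry1 and Nr1d1 over the alternatives was 0.669. These fits share libraries with the comparisons within each genotype.

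Whether the clock genes differed between TG and WT rats was asked without and with antibiotics. Without antibiotics, Nr1d1 lay at 7.92 to 16.2 CPM in TG-C and 3.75 to 5.30 CPM in WT-C, a 2.62-fold higher level with no overlap. The Per2 level was 31.1 to 92.2 CPM in TG-C, below the 97.9 to 108.6 CPM of WT-C in every library. Thus 2 of 8 clock genes did not overlap, where 8.67% of all genes did not. The log2 fold change was 1.39 ± 0.35 for Nr1d1 and -0.60 ± 0.36 for Per2, with adjusted p of 0.910 for each by edgeR, and 0% of 12038 genes were called. At an unadjusted p under 0.05 only Nr1d1 passed, with 2.63% of all genes, and DESeq2 called no clock gene. Cry1 had a log2 fold change of -0.29 ± 0.20 and Arntl one of 0.32 ± 0.23, and in both genes the groups overlapped. The WT-C libraries in this comparison are also the controls of the WT antibiotic comparison, so the higher Nr1d1 in both is not 2 independent results.

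With antibiotics, all 8 clock genes overlapped between TG-Ab and WT-Ab, where 4.23% of all genes did not overlap. The log2 fold change of Nr1d1 was 0.78 ± 0.83 and turned to -0.72 without TG-Ab 3, so that 1 library set its direction. Per2 and Cry1 differed by 0.22 ± 0.25 and 0.17 ± 0.24. No clock gene was called by edgeR or DESeq2 or passed at an unadjusted p under 0.05, where edgeR called 0.00815% of all genes and 1.31% passed unadjusted. Over both treatments together, Nr1d1 was 2.11-fold higher in TG (log2 fold change of 1.08 ± 0.48, adjusted p of 0.996 by edgeR), and without TG-Ab 3 the value was 0.47. No clock gene separated all TG from all WT libraries at 3 M, which 0.0803% of all genes did. Nr1d1 was the only clock gene at an unadjusted p under 0.05, with 2.85% of all genes. Neither edgeR, which called 0.00803% of all genes, nor DESeq2 called a clock gene there.

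**Figure D3:**
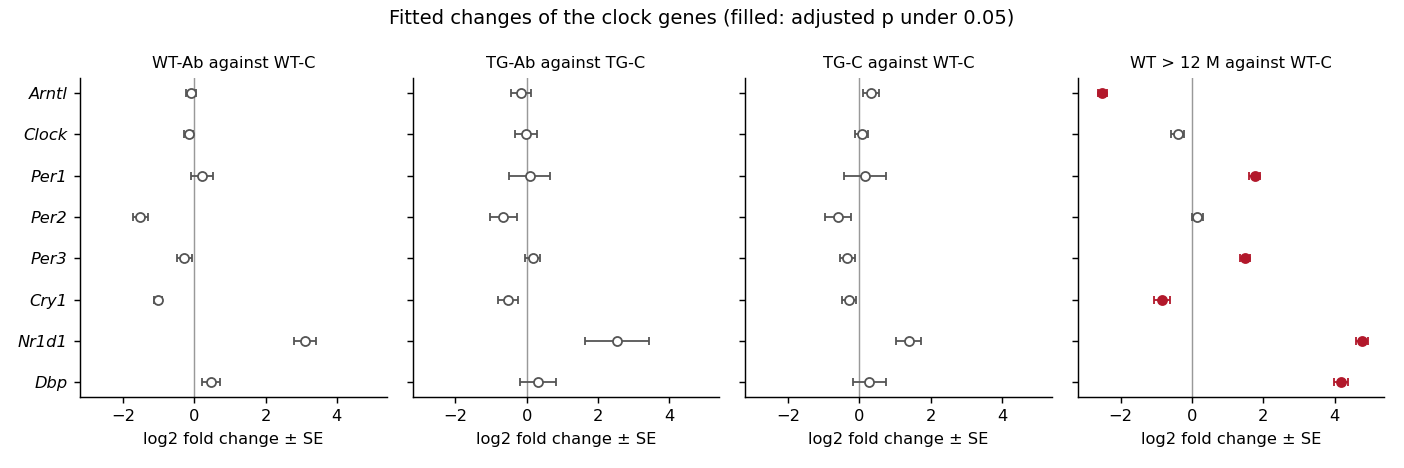
Log2 fold change ± SE of the 8 clock genes in 4 comparisons (edgeR, 3 libraries against 3), filled where the adjusted p was under 0.05. With antibiotics in WT rats Nr1d1 (3.12), Per2 (-1.51) and Cry1 (-1.01) lie away from 0 but are not filled, while 6 genes are filled for WT rats at > 12 M, from -2.51 for Arntl to 4.78 for Nr1d1.

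The comparison of WT rats at > 12 M with WT-C asked about age, and here the clock genes lay furthest apart. Nr1d1 rose 27.4-fold, Dbp 18.1-fold, Per1 3.39-fold and Per3 2.82-fold at > 12 M, while Arntl fell 5.68-fold and Cry1 fell 1.79-fold. Clock and Per2 did not pass the threshold. The median absolute log2 fold change was 1.63 over the 8 clock genes and 0.31 over all genes tested. The older libraries were counted as read pairs and the younger ones as single reads, their mitochondrial share was 6.31% to 7.83% against 11.6% to 13.7%, and age cannot be told apart from this handling or from the hour of collection.

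Dbp and Nr1d1 are both direct targets of Clock and Arntl, and both were higher in every older library than in any WT-C library. Dbp was at 205.4, 254.4 and 187.7 CPM at > 12 M and at 15.3, 11.1 and 10.9 CPM in WT-C. Nr1d1 was at 126.5, 97.4 and 136.9 CPM at > 12 M against 3.75 to 5.30 CPM in WT-C. For Dbp the older libraries were also above all 12 libraries at 3 M, whose highest value was 28.4 CPM, while for Nr1d1 the single TG-Ab library at 167.0 CPM was above them. Of the activators, Arntl was at 14.7, 12.8 and 14.8 CPM at > 12 M against 70.1, 91.6 and 88.3 CPM in WT-C, and no library at 3 M was below 70.1 CPM. Clock was at 89.8, 54.4 and 86.9 CPM against 112.6, 107.4 and 97.4 CPM. Its groups did not overlap, but the spread of the older libraries was wide.

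Among the repressors, Per1 was at 91.4, 78.7 and 73.1 CPM at > 12 M against 24.6, 29.03 and 21.1 CPM in WT-C. Per3 was at 62.5, 55.2 and 62.2 CPM against 25.5, 23.1 and 17.7 CPM. Both were higher in every older library than in any of the 12 libraries at 3 M. Per2 was at 140.2, 94.8 and 99.8 CPM, which overlapped the 97.9 to 108.6 CPM of WT-C. Cry1 was at 33.7, 33.9 and 19.3 CPM, below the 51.7 to 57.8 CPM of WT-C. The values of 33.7 and 33.9 CPM lay within the 22.5 to 42.7 CPM of the 6 antibiotic libraries, and 19.3 CPM lay below that range. Of the period genes, Per1 and Per3 thus rose, while Per2 had a log2 fold change of 0.16 ± 0.15 (edgeR, adjusted p of 0.437), which turned to -0.037 without library 1 at > 12 M. Whether Per2 differed in its change from Per1 and Per3 was not tested.

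In this fit (edgeR, 11498 genes) 6 of the 8 clock genes were called, 4 higher and 2 lower, where 35.3% of all genes were called, 18.9% higher and 16.4% lower. The log2 fold change was 4.78 ± 0.17 for Nr1d1 (adjusted p of 1.10e-05), 4.18 ± 0.19 for Dbp (2.75e-05), 1.76 ± 0.14 for Per1 (0.000287) and 1.50 ± 0.14 for Per3 (0.000485). It was -2.51 ± 0.13 for Arntl (3.51e-05), -0.84 ± 0.22 for Cry1 (0.0248) and -0.40 ± 0.18 for Clock (0.116). At an unadjusted p under 0.05 the same 6 passed, with 47.1% of all genes. The groups of 7 clock genes did not overlap, and neither did those of 54.1% of all genes. Cry1 lost its call without WT-C 1, WT-C 2 or WT-C 3 (adjusted p of 0.0605, 0.0712 and 0.0555, in a range of 0.00145 to 0.0712 over the alternatives). The other 5 called genes kept theirs when any one library was left out, with adjusted p of at most 0.00333. With the trend of all genes on exon length removed, the values ran from -2.46 for Arntl to 4.82 for Nr1d1, while Clock changed to -0.14 and Per2 to 0.35.

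A ratio of 2 clock genes within a library does not depend on how the library was scaled. The log2 ratio of Dbp to Arntl was -2.75 ± 0.48 (SD, n = 3) in WT-C, -2.23 ± 0.52 in WT-Ab, -2.94 ± 1.26 in TG-C, -2.38 ± 0.99 in TG-Ab and 3.93 ± 0.34 at > 12 M. The 4 groups at 3 M overlapped and the older libraries were apart from them. For Nr1d1 to Arntl, in the same order, the ratio was -4.20 ± 0.44, -1.05 ± 0.53, -3.17 ± 0.47, -1.02 ± 1.83 and 3.08 ± 0.14. Here the antibiotic groups lay between the untreated groups and the older libraries, with TG-Ab 3 at 1.09 above the other libraries at 3 M. For Per2 to Arntl the ratio was 0.33 ± 0.24, -1.14 ± 0.27, -0.70 ± 0.92, -1.09 ± 0.10 and 2.97 ± 0.26, so the antibiotic groups lay on the other side of WT-C from the older libraries. The order of the group means by Nr1d1 was therefore not the order by Per2, nor by Dbp. The ratios of Per1, Per3 and Cry1 to Arntl had means of -2.55 to -0.61 in the groups at 3 M and of 2.52, 2.09 and 0.99 at > 12 M.

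**Figure D4:**
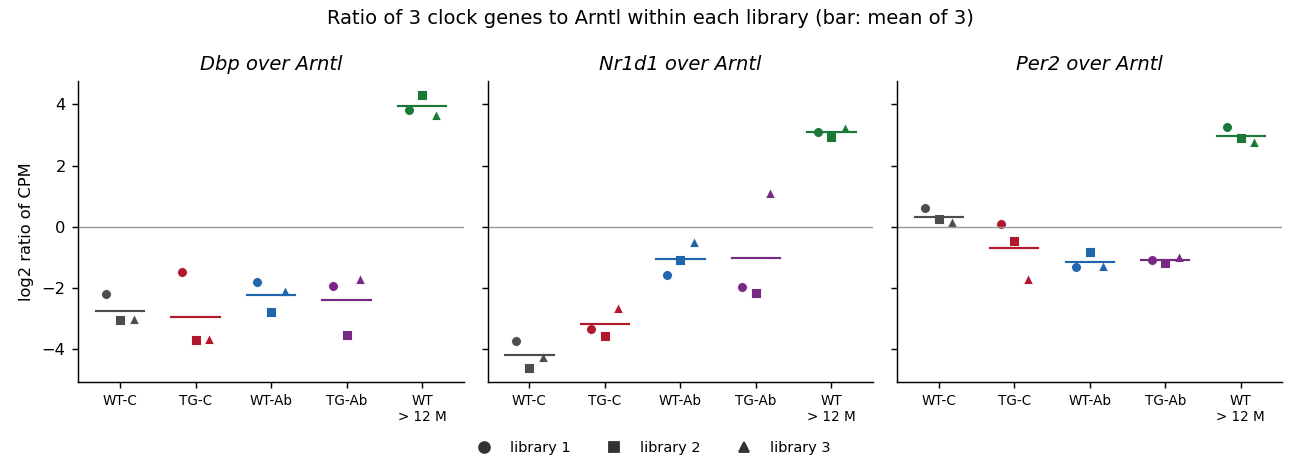
Log2 ratio of the CPM of Dbp, Nr1d1 and Per2 to that of Arntl in each of the 15 libraries, with a bar at each group mean. The libraries at > 12 M lie above the 12 libraries at 3 M in all 3 panels, while the antibiotic groups lie above WT-C for Nr1d1 (-1.05 in WT-Ab against -4.20) and below it for Per2 (-1.14 against 0.33).

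At 3 M, part of the spread of Per1 and Dbp followed the 3 libraries that stood apart rather than the groups. Per1 was at 38.5 to 59.1 CPM in WT-Ab 1, TG-C 1 and TG-Ab 1 and at 10.6 to 31.2 CPM in the other 9 libraries, without overlap. Dbp was at 24.7 to 28.4 CPM in these 3 and at 8.13 to 24.0 CPM in the other 9, also without overlap. The sets were split on all genes together. Between them 2 of 8 clock genes did not overlap, which is near the share of all genes, 27.9%. Arntl, Nr1d1 and Per3 overlapped between the same sets. The mitochondrial share of counts was 6.05% to 9.35% in the 3 libraries and 11.0% to 13.7% in the others. The sets were formed from the data and not from the labels, so no test was made.

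The genes most like Dbp over the 12 libraries at 3 M (log2 CPM, among 12457 genes) were ENSRNOG00000012323 on chr16 with Pearson's r = 0.961 and ENSRNOG00000039204 on chr7 with r = 0.944. Those most like Arntl were ENSRNOG00000015794 on chr3 with r = 0.886 and ENSRNOG00000007493 on chr4 with r = 0.861. No symbol is paired with these IDs, and the libraries share the 3 that stood apart, so the values are descriptions of shared spread. ENSRNOG00000012323 ranged from 52.4 to 97.8 CPM and ENSRNOG00000039204 from 0.558 to 5.37 CPM. ENSRNOG00000015794 ranged from 10.4 to 26.7 CPM and ENSRNOG00000007493 from 3.77 to 6.60 CPM.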

How the data were processed

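RNA was sequenced from the colon MS layer of 15 rat libraries. The authors deposited a table of raw gene counts for every library, made per the file headers with featureCounts 2.0.0 over Rnor6 exons (strand setting 2, mapping quality of at least 3), as read pairs at > 12 M and as single reads at 3 M. STAR 2.5.4a, bcl2fastq 2.19.1 and Subread are further tools in the submitters' processing notes. The labels name directional NEBNext poly(A) libraries and the methods QuantSeq libraries of transcript ends and the build mRatBN7.2. Counts of whole transcripts grow with length and those of ends do not, so levels were compared only between libraries. Reads with a mapping quality under 3 were not counted, and whether reads that match several genes were among them was not checked.

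Groups came from the sample labels. Tests used edgeR 4.0.16 in R 4.3.3 (TMM, robust glmQLFit and glmQLFTest, two-sided, Benjamini-Hochberg adjustment over all genes kept) on genes that reached 4 CPM in 1 library or more, with calls at an adjusted p under 0.05. Each pairwise fit held the libraries of its 2 groups, and antibiotics, genotype and their interaction were fitted to the 12 libraries at 3 M. SE were derived from the F statistic. The tests were tried on simulated data first. CPM used each library's total over all genes, and correlations and principal components log2 CPM with a prior count of 2. With 3 libraries a group and totals of 15606835 counts or more, the spread between libraries limits the precision.

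All 8 clock genes are named whatever their values, as are the 2 genes most like Dbp and the 2 most like Arntl. The genes, other lists and tests were chosen with earlier results of these data known. Lists of other clock genes, glucocorticoid-responsive genes and cell type markers were not analysed here, since the gene table used pairs none of their IDs with symbols.

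The groups at 3 M share replicate numbers. Deviations from the group means correlated between libraries of the same number with r of 0.575 to 0.797 for TG-C and TG-Ab, 0.410 to 0.822 for WT-Ab and TG-C and 0.228 to 0.592 for WT-Ab and TG-Ab. These numbers were treated as pairs on that ground alone, and those of WT-C were not (-0.232 to 0.320). Libraries of different numbers also correlated, with r of 0.504 for WT-Ab 2 and TG-C 3 and 0.475 for WT-Ab 2 and TG-Ab 3. For TG-C and TG-Ab, r between different numbers was at most 0.279. Since library 1 stood apart in each of the groups treated as paired, these r do not establish pairing. Alternatives were the Wald test of DESeq2 1.42.0, its size factors, other filters, all 4 groups in 1 fit, the replicate block, leaving out each library, leaving out the 3 that stood apart, and removing a trend on exon length.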

Additional observations from a re-analysis of the deposited data

How the results depend on the processing

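Of the alternative log2 fold changes of all 8 clock genes for antibiotics over both genotypes and for age, and of Nr1d1, Per2 and Cry1 elsewhere, 452 kept their direction and their side of the threshold, 15 lost a call, 15 gained one and 8 changed sign. Among the 452 are the age values with the trend on exon length removed, which have no p. These kept their direction and moved by less than the larger SD of log2 CPM of the groups. For antibiotics in WT rats, 3 clock genes were called by DESeq2 and 3 without the libraries that stood apart (0 otherwise, 0 to 3 when each library was left out). For antibiotics in TG rats DESeq2 called 1. Over both genotypes the count was 2 and ran from 0 to 3 when each library was left out. These 8 changes of sign came from leaving out 1 library, in Nr1d1 in TG-Ab against WT-Ab (-0.72 to 1.21), Clock (-0.17 to 0.013), Per1 (-0.0020 to 0.57) and Per3 (-0.13 to 0.023) with antibiotics over both genotypes, Cry1 between genotypes (-0.16 to 0.032) and Per2 at > 12 M (-0.037 to 0.25). Over all 8 genes and all comparisons, 59 of 930 values changed sign, 44 of them on leaving out 1 library and 15 under other settings, and 0 of them were called values. Between TG-C and WT-C, Per1 turned from 0.16 to -0.20 with the replicate block and to -0.84 without TG-C 1, and Dbp from 0.28 to -0.41 without TG-C 1. The causes were not tested. With 1 CPM added, the log2 ratio of Per3 to Arntl at > 12 M was 2.01 in place of 2.09. With at least 4 CPM required in every library, Nr1d1 could not be tested where WT-C was in the fit, since it had 3.75 CPM in 1 library.

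With the replicate number as a block, which is no pairing for WT-C, 3 clock genes were called for antibiotics over both genotypes, with adjusted p (edgeR) of 0.0111 for Nr1d1, 0.0169 for Cry1 and 0.0295 for Per2. The block changed no other call of a clock gene. In TG rats, whose numbers were treated as pairs, the blocked adjusted p of Nr1d1 was 0.150 (edgeR).

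The number of genes called among all genes, the background of these counts, also moved. For antibiotics over both genotypes it was 347, against 820 with the replicate block, 1247 by DESeq2, 1342 without the 3 libraries and 89 to 1848 when each library was left out. In WT rats it was 0, against 615 by DESeq2 and 187 without WT-Ab 1, and in TG rats 1, against 201 by DESeq2 and 20 with the block.

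Depth limits these results little, since the lowest count was 65. The limits are 3 libraries a group, the unknown hour of collection, and for age the other counting of the older libraries.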
